A study of Mus musculus with 2 samples.

Results

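The 43 genes described here are cell cycle genes of 3 kinds, taken by symbol from a table of 33963 genes measured in single mouse cells. All 43 symbols were found. They are 20 genes of DNA replication, 18 genes of mitosis and 5 genes that act in G1, namely the D-type cyclins Ccnd1, Ccnd2 and Ccnd3, the retinoblastoma gene Rb1 and the CDK inhibitor gene Cdkn1b. A further list of 34 regulators of the cycle (E2F and DP factors, the Rbl genes, Mybl2, Foxm1, other CDKs, CDK inhibitors and the CDC25 genes among them) was read as the rest of the pathway.

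The cells came from 5 cultures, each carrying 1 oligonucleotide tag, that were pooled in 1 cDNA library of 17720 cells. Naive cells were embryonic stem cells of the mouse that carry Rex1-GFP, a reporter of naive cells, and were kept in 2iL, a medium with inhibitors of MEK and GSK3 and with leukemia inhibitory factor (LIF). Primed cells were the mouse epiblast stem cell line Oct4GIP, which carries a GFP and puromycin resistance transgene under Oct4 regulatory sequences and grows in FGF2 and Activin A, per the labels on mouse embryonic fibroblasts (MEF) the day before the treatment. The study took the cells of this sample without Oct4 to be feeder cells. For d8 and d16, Oct4GIP cells on a feeder layer of mouse embryonic fibroblasts were treated with AICAR, an activator of AMP-activated protein kinase (AMPK), and LIF for 8 and 16 days. For d16+10p, d16 cells were then passaged 10 times in 2iL. The strain was given as 129/Ola for the whole library, and every culture was 1 line and 1 tagged sample. The d16 cells were read as 2 groups, those with at least 1000 CPM (counts per 1000000 reads) of Dppa5a, a gene of naive cells (d16 Dppa5a-high), and the others (d16 Dppa5a-low). Just inside and just outside that limit lay cells with 1012 and 992 CPM of Dppa5a. This gave 801 naive, 1826 primed, 9627 d8, 1278 d16 Dppa5a-high, 3037 d16 Dppa5a-low and 1151 d16+10p cells. The pool was stated to have received 500 cells for the primed tag and as many for the naive tag. For d16+10p it was 1000, and for d8 as for d16 it was 9000. The primed tag, with 1826 against 500, thus held more cells than were put in, as did the naive, d8 and d16+10p tags. Where the additional cells came from was not tested. The intervals of levels are exact Poisson and those of ratios exact binomial intervals. With 1 sample in a group there is no replicate check and no test. Ranges in parentheses after a log2 ratio and all other intervals are at 95% and cover counting error only, and since amplified copies of a molecule are not independent reads, they are too narrow. Log2 ratios of single genes were taken with 1 CPM added to both levels, and their intervals without it, so that an interval reaches farther from 0 for a gene with few reads.

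Most cells express the genes of DNA replication from late G1 into S phase, when E2F factors are released from the retinoblastoma protein, and the genes of mitosis in G2 and M phase, when B-MYB (Mybl2) and FOXM1 act with the MuvB complex. D-type cyclins with CDK4 and CDK6 phosphorylate the retinoblastoma protein in G1, and p27 (Cdkn1b) inhibits CDKs. Naive mouse embryonic stem cells are known for a short G1 phase and rapid division. A tagged culture is a mixture, so a lower level in a group can mean fewer cycling cells or less RNA of these genes per cycling cell, and these cannot be told apart from summed levels.

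The depth per cell differed between groups, with medians from 8691 reads in d16 Dppa5a-low cells to 21551 in d16+10p cells. The labels were checked against naive markers other than Dppa5a, which had split the d16 cells. Zfp42, the gene of Rex1, was at 564 CPM in naive and 34 in primed cells, 24.1 in d8, 488 in d16 Dppa5a-high, 28.7 in d16 Dppa5a-low and 406 in d16+10p cells. Esrrb was at 123 CPM in naive and 10.5 in primed cells, 7.78 in d8, 117 in d16 Dppa5a-high, 8.44 in d16 Dppa5a-low and 123 in d16+10p cells, and Tfcp2l1 at 91.1 CPM in naive and 9.76 in primed cells, 7.04 in d8, 94.9 in d16 Dppa5a-high, 7.70 in d16 Dppa5a-low and 105 in d16+10p cells. Within every tag, cells were sorted into 4 classes by their own reads: Dppa5a-high, Pou5f1-high (at least 200 CPM of the pluripotency gene Pou5f1), collagen-high (at least 5000 CPM of Col1a1, Col1a2 and Col3a1 together) and other, a cell being put in the first class it met. The classes are ranges of a value and not cell types. Of the naive-tagged cells 71.2% were Dppa5a-high, and of the d16+10p cells 80.5%. Of the primed-tagged cells 25.3% were Pou5f1-high, 10.5% were collagen-high and 60.8% belonged to no marked class. The 4 primed markers (Fgf5, Fgf8, Otx2 and Pou3f1) summed to 177 CPM in primed and 60.3 CPM in naive cells, but also to 148 in d8 and 104 in d16 Dppa5a-low cells. Fgf5 was higher in d8 than in primed cells, at 73.7 against 60.8 CPM. Otx2 was higher in d16 Dppa5a-low than in primed cells, at 52.7 against 29.8 CPM, while Fgf8 and Pou3f1 were highest in primed cells. The 3 pluripotency markers (Pou5f1, Sox2 and Nanog) summed to 518 CPM in primed and 1065 CPM in naive cells. The primed group is therefore given both whole and as its Pou5f1-high cells. No class in these cultures is known to lack cell cycle transcripts, so the part of free RNA in the shares of cells was not measured.

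Before the levels, the promoters of the members are shown, since the replication and the mitosis genes are known to answer to different promoter elements. Windows from 250 bases before to 50 bases after the start of transcription were read from RefSeq (GRCm38.p6), for 17 of the 20 replication genes, 15 of the 18 mitosis genes and 2 of the 5 G1 genes, 1 window per gene. Mcm4, Gins2, Ccne2, Ccna2, Aurkb, Tpx2, Ccnd1, Ccnd2 and Rb1 had no entry. Each window was searched on both strands for E2F letters (TTCCCGC or TTGGCGC or TTCGCGC), for the core of the cell cycle genes homology region (CHR, TTTGAA) and for the CCAAT box (CCAAT). The E2F word TTGGCGC on the opposite strand can overlap a CCAAT box. E2F letters stood in 8 of 17 replication windows (47.1%) and 3 of 15 mitosis windows (20%), against 8.24% of all 27025 windows of the same length. The CHR core together with a CCAAT box stood in 10 of 15 mitosis windows (66.7%) and 2 of 17 replication windows (11.8%), against 7.16% of all windows. A CCAAT box, with or without the CHR core, stood in 12 of 17 and 13 of 15, against 38% of all. These are matches of letters and not binding sites.

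Shown 5′ to 3′ on the strand of the gene, with all 3 kinds of match in capitals, are 2 replication genes with several E2F words, Mcm6 (chr1:128359656-128359955 on the minus strand, 5 E2F words) and Mcm3 (chr1:20820263-20820562 on the minus strand, 3 E2F words), 2 mitosis genes with CHR cores and CCAAT boxes but no E2F word, Ccnb2 (chr9:70421505-70421804 on the minus strand) and Top2a (chr11:99024140-99024439 on the minus strand), Cdk1 (chr10:69352863-69353162 on the minus strand), which held all 3 kinds, and Pclaf (chr9:65890073-65890372 on the plus strand), a replication gene whose levels differed from those of the rest of its list.
Mcm6: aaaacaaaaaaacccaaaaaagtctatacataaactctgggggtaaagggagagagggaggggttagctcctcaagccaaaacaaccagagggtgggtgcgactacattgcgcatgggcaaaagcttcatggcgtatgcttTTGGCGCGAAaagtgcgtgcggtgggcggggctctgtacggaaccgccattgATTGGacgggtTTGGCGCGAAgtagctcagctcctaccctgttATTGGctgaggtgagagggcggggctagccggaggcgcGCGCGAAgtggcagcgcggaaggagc
Mcm3: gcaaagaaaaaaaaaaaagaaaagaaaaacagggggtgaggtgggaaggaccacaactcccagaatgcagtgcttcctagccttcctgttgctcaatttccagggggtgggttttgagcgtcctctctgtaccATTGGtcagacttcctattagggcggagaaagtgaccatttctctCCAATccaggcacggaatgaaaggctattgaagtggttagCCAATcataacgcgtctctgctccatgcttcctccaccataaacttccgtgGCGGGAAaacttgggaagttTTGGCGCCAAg
Ccnb2: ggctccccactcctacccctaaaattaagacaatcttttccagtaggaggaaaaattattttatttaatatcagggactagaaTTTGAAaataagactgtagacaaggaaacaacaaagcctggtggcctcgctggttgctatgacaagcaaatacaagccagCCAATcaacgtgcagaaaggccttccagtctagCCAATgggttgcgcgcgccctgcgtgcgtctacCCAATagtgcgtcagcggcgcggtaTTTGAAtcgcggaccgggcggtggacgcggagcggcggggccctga
Top2a: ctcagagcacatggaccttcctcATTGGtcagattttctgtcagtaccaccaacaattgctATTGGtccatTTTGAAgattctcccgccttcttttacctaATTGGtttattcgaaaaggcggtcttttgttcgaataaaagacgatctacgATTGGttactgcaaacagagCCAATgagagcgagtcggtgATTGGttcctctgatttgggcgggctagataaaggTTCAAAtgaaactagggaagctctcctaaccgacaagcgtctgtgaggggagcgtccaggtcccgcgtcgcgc
Cdk1: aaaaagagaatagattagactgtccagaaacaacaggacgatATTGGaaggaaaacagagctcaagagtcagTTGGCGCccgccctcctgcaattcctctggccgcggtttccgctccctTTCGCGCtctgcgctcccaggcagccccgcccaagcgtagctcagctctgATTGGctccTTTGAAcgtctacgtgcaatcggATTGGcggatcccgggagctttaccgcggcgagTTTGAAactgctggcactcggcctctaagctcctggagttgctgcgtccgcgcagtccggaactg
Pclaf: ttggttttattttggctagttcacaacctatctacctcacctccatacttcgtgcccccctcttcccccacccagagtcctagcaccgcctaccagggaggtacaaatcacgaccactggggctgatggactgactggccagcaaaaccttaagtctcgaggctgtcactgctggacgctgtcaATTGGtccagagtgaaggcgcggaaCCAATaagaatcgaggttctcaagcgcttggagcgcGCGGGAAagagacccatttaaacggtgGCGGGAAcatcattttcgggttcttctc

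Across the 6 groups the replication and the mitosis genes were highest in d16 Dppa5a-high cells and lowest in d8 and d16 Dppa5a-low cells. The summed level of the 20 replication genes was 2273 CPM in naive and 1887 in primed cells, 901 in d8, 2562 in d16 Dppa5a-high, 890.2 in d16 Dppa5a-low and 2378 in d16+10p cells. That of the 18 mitosis genes was 2242 CPM in naive and 1859.8 in primed cells, 894 in d8, 2931 in d16 Dppa5a-high, 1237 in d16 Dppa5a-low and 2307 in d16+10p cells. The d16 Dppa5a-high and Dppa5a-low cells were set apart by a gene of naive cells, whereas the other 4 groups are whole tags that mix classes, and classes are compared further on. The highest of the 6 groups was d16 Dppa5a-high for 16 of the 18 mitosis genes and 11 of the 20 replication genes. The lowest was d8 for 16 of the 18 mitosis genes, and for the replication genes d8 in 10 cases and d16 Dppa5a-low in the other 10. The exceptions at the top among the mitosis genes were Birc5, highest in naive cells, and Cenpe, highest in primed cells. CPM are relative to all reads of a group and not divided by transcript length, so they are compared between groups and not between genes. For scale, the counting interval of Top2a in d16 Dppa5a-high cells was 442 to 460.3 CPM, and that of Cdc6 in d16 Dppa5a-low cells, the lowest level of any member, 5.45 to 7.13 CPM.

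**Figure D1:**
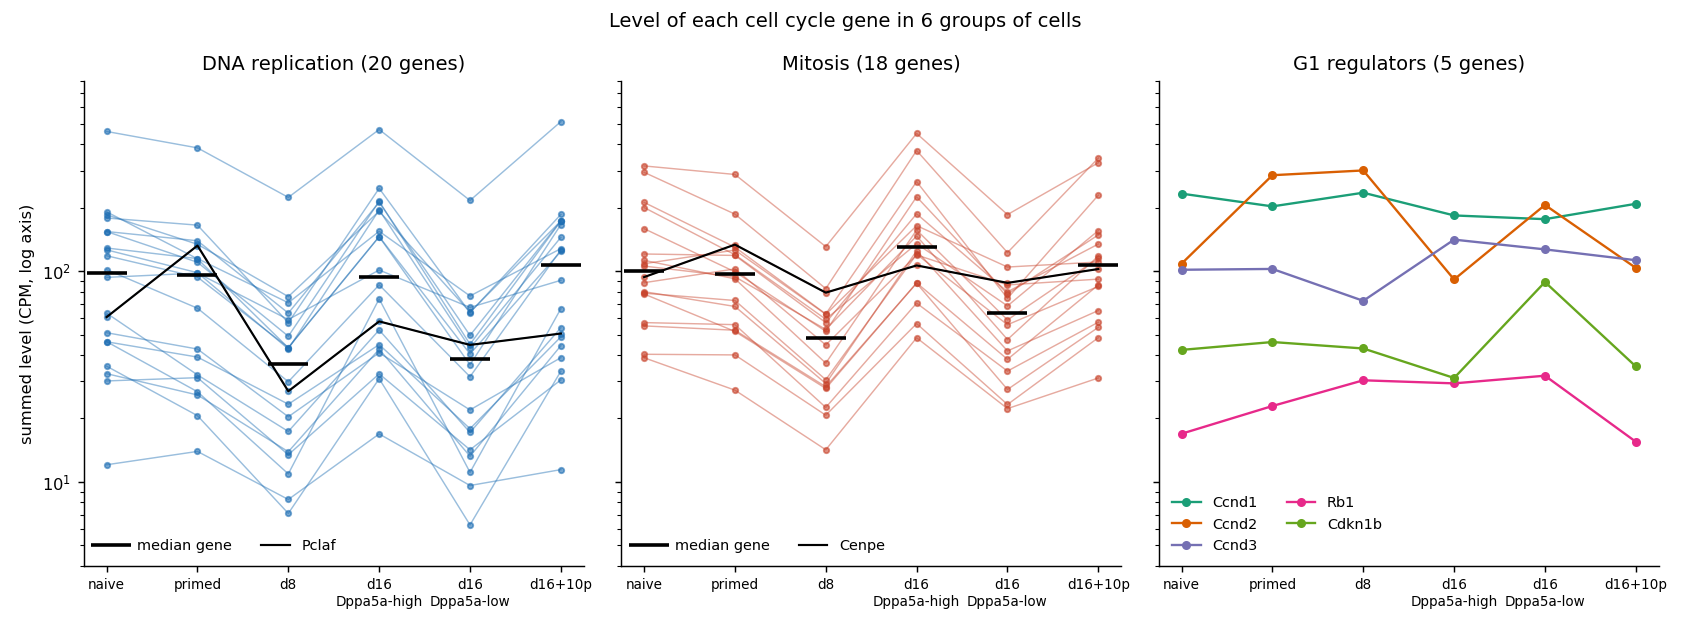
Each line is 1 gene, each point its summed level in CPM (log axis) in 1 of the 6 groups of cells on the x axis, and the short black bars mark the median gene of a list. Replication and mitosis genes dip together in d8 and d16 Dppa5a-low cells, Pclaf and Cenpe peak in primed cells, and the 5 G1 genes keep other orders.

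Mcm2 to Mcm7 encode the 6 subunits of the helicase that unwinds DNA at the fork. For all 6 the lowest groups were d8 and d16 Dppa5a-low, and the highest was d16 Dppa5a-high except for Mcm5, which was highest in naive cells. Mcm6 was at 126 CPM in naive and 98.4 in primed cells, 42.8 in d8, 195 in d16 Dppa5a-high, 43.2 in d16 Dppa5a-low and 145 in d16+10p cells. Mcm5 was at 192 CPM in naive and 115 in primed cells, 43.3 in d8, 146 in d16 Dppa5a-high, 36 in d16 Dppa5a-low and 167 in d16+10p cells. Both were much higher in naive, d16 Dppa5a-high and d16+10p cells as in d8 and d16 Dppa5a-low cells. Among the genes that load or complete the helicase, Cdc6, the loader, ranged from 6.25 CPM in d16 Dppa5a-low to 35.4 in naive cells, a 5.67-fold span. Its 3 highest groups (naive, d16+10p and d16 Dppa5a-high) overlapped in pairs of neighbours. Cdc45 ranged from 13.2 to 44.3 CPM and Gins2, a subunit of the GINS complex, from 20.4 to 51.1 CPM.

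Pcna, the sliding clamp of DNA polymerases, was at 461 CPM in naive and 385 in primed cells, 224 in d8, 471 in d16 Dppa5a-high, 217 in d16 Dppa5a-low and 513 in d16+10p cells. Rrm2, the regulated subunit of ribonucleotide reductase, was at 179 CPM in naive and 166 in primed cells, 57 in d8, 248 in d16 Dppa5a-high, 63.6 in d16 Dppa5a-low and 186 in d16+10p cells, whereas Rrm1, the other subunit, spanned only 1.72-fold over the 6 groups. Tyms, which makes thymidylate, spanned 4.23-fold. The widest span of all 43 genes was that of Ung, which removes uracil from DNA, at 46.3 CPM in naive and 26.8 in primed cells, 10.9 in d8, 73.9 in d16 Dppa5a-high, 11.1 in d16 Dppa5a-low and 66.4 in d16+10p cells. The E-type cyclins differed, with a span of 3.68-fold for Ccne1 and 2.05-fold for Ccne2, which had no more than 16.9 CPM in any group and whose neighbouring groups all overlapped. Slbp, which binds the stem-loop of histone mRNAs, Fen1, the flap endonuclease, and Clspn, a checkpoint adaptor, spanned 2.18-, 2.73- and 2.42-fold.

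Among the mitosis genes, Cdk1, the kinase that drives entry into mitosis, was at 159 CPM in naive and 99.3 in primed cells, 51.9 in d8, 226 in d16 Dppa5a-high, 78 in d16 Dppa5a-low and 149 in d16+10p cells. Its partner Ccnb1 was at 212 CPM in naive and 130.1 in primed cells, 62.7 in d8, 266 in d16 Dppa5a-high, 74.4 in d16 Dppa5a-low and 229.8 in d16+10p cells. Ccna2 and Ccnb2 had the same highest and lowest groups, with spans of 4.28- and 4.27-fold. Top2a, which untangles chromosomes, was at 316 CPM in naive and 288 in primed cells, 131 in d8, 451 in d16 Dppa5a-high, 186 in d16 Dppa5a-low and 328 in d16+10p cells. Ube2c, the ubiquitin-conjugating enzyme of the anaphase-promoting complex, was at 295 CPM in naive and 187 in primed cells, 82.7 in d8, 374 in d16 Dppa5a-high, 123 in d16 Dppa5a-low and 345 in d16+10p cells, the widest span of the mitosis list at 4.52-fold. Cdc20, an activator of that complex, spanned 3.10-fold. The kinases Aurka, Aurkb, Plk1 and Bub1 spanned 3.13- to 3.40-fold, and the spindle genes Tpx2, Kif11 and Nusap1 2.72- to 3.94-fold. The narrowest spans were those of Cenpe, a kinetochore motor, at 1.69-fold, Cenpf, another kinetochore protein, at 2.64-fold, and Mki67, the gene of the Ki-67 antigen, at 2.67-fold. In Mki67 the naive and d16 Dppa5a-low cells overlapped, at 88.3 and 86.1 CPM, although Cdk1 differed between them from 159 to 78 CPM.

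Primed cells held somewhat less of both lists than naive cells, and more of Pclaf and Ccnd2. The log2 ratio of the summed level was -0.27 (-0.29 to -0.25) for the replication list and -0.27 (-0.29 to -0.25) for the mitosis list, and the medians of the members were -0.29 and -0.15, against a median of 0.080 over all genes compared. Of the 10549 genes that reached 10 CPM in one group or the other, 14.3% were at least 1.5-fold higher and 9.26% at least 1.5-fold lower. Among the members, 5 of 20 replication genes were past 1.5-fold lower (log2 ratios Ccne1 -0.95, Ung -0.77, Cdc6 -0.75, Mcm5 -0.74 and Tyms -0.60) and 1 was past it higher (Pclaf). Of the 18 mitosis genes 4 were past it lower (Birc5 -0.74, Ccnb1 -0.70, Cdk1 -0.68 and Ube2c -0.66) and none higher, so that the shares past it lower were above that of all genes. Ccne1 encodes a cyclin of the passage from G1 to S phase, and Birc5 an inhibitor of apoptosis that also acts in the chromosomal passenger complex. Pclaf, a small protein that binds PCNA, went the other way at 1.11 (1.03 to 1.23), and was at 60.6 CPM in naive and 132 in primed cells, 26.9 in d8, 57.8 in d16 Dppa5a-high, 44.7 in d16 Dppa5a-low and 50.6 in d16+10p cells.

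Between Pou5f1-high primed and Dppa5a-high naive cells both lists were closer to equal, and the replication list changed sign. There the log2 ratio of the replication list was 0.020 and that of the mitosis list -0.12, and 1 of the 43 genes, Cdk1, was past 1.5-fold lower instead of 9, while 13.1% of all genes were. The 3 of 43 genes then past it higher, against 13.1% of all genes, were Pclaf, at 203 against 63.2 CPM, Cenpe, at 135 against 82.8 CPM, and Ccnd2. Both shares of members were below those of all genes. The fibroblast markers Col1a1, Col1a2, Col3a1, Lum and Dcn summed to 1544 CPM in primed and 594 CPM in naive cells, with none at 0.

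After 8 days in AICAR and LIF all 38 genes of both lists were lower than in primed cells by at least 1.5-fold, 20 of 20 and 18 of 18. Of the 10403 genes that reached 10 CPM in one group or the other, 9.52% were at least 1.5-fold higher and 10.6% at least 1.5-fold lower. The summed log2 ratios were -1.07 (-1.08 to -1.05) and -1.06 (-1.07 to -1.04), close to each other, and the medians were -1.11 and -1.02, against -0.018 over all genes. Scaling by TMM factors moved all log2 ratios of this comparison up by 0.10 and left the same number, 38, past 1.5-fold, whereas the number was 31 with the mean of CPM per cell and 36 with a pseudocount of 10 CPM. The lowest ratio was that of Pclaf, -2.25 (-2.36 to -2.23), which went from 132 to 26.9 CPM. Next were Rrm2, -1.52 (-1.59 to -1.49), Cdc6, -1.42 (-1.68 to -1.40), and Mcm5, -1.38 (-1.46 to -1.34). The ratios nearest to 0 were those of Slbp at -0.69 and Ccne2 at -0.69, and among the mitosis genes that of Cenpe at -0.75. Against Pou5f1-high primed cells all d8 cells had sums of -1.49 and -1.29, 39 of the 43 genes were past 1.5-fold lower against 16.2% of all genes, and 1, Rb1, was past it higher against 22.8%. The lower level was also seen among the Pou5f1-high cells alone, 743 of d8 against 462 of primed, where the medians were -0.79 for replication and -0.69 for mitosis genes, against 0.12 over all genes. These 2 sets were not alike. Within 1.5-fold of the Pou5f1 limit lay 359 of the 743 d8 cells and 114 of the 462 primed cells. Median depth was 13643 reads in the d8 and 19592.5 in the primed cells. Markers of other cell types differed as well. The 3 epithelial markers Krt8, Krt18 and Epcam summed to 2507 CPM in d8 and 1139 in primed cells, the 4 macrophage markers Cd68, Lyz2, Csf1r and Adgre1 to 2802 and 696, and the 3 smooth muscle markers Acta2, Tagln and Myh11 to 950.0 and 366, with none at 0. Epcam alone went against its sum, at 72.7 CPM in d8 and 100 in primed cells. Lower in d8 were the fibroblast markers, at 953.9 against 1544 CPM, and the 3 neural markers Sox1, Pax6 and Tubb3, at 25.7 against 52 CPM. Of the fibroblast markers, Dcn went the other way, at 205 against 170 CPM. The part of these cell types in the whole-tag ratios was not tested.

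Within the d16 culture the Dppa5a-high cells exceeded the other cells in 18 of 20 replication and 16 of 18 mitosis genes by at least 1.5-fold, and no gene of either list was past it lower. Of the 11348 genes that reached 10 CPM in one group or the other, 21.6% were at least 1.5-fold higher and 27.4% at least 1.5-fold lower. The summed log2 ratio was larger for replication, 1.53 (1.5 to 1.55), than for mitosis, 1.24 (1.23 to 1.26), with medians of 1.57 and 1.23 against -0.035 over all genes. Ung stood at 2.63 (2.57 to 2.90), Mcm3 at 2.23 (2.17 to 2.34) and Mcm6 at 2.15 (2.09 to 2.26), and the highest ratios of the mitosis list were those of Ccnb1, 1.83 (1.77 to 1.91), and Bub1, 1.64 (1.56 to 1.79). The 4 genes short of 1.5-fold were Rrm1 at 0.58, Pclaf at 0.36, Mki67 at 0.47 and Cenpe at 0.27. Of the d16 Dppa5a-low cells 19.1% were collagen-high. Without them the summed ratios were 1.5 and 1.3. In low against high cells the fibroblast markers summed to 3281 against 443 CPM, the macrophage markers to 882 against 242, the epithelial markers to 879.6 against 463 and the smooth muscle markers to 487 against 209. Epcam alone went against its sum, at 46.0 against 64.2 CPM. Only collagen-high cells were left out above, and the part of the other cell types was not tested.

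Set against the primed cells they were derived from, d16 Dppa5a-high cells had 7 replication and 12 mitosis genes past 1.5-fold higher and 1 replication gene, Pclaf, past it lower. Of the 10716 genes that reached 10 CPM in one group or the other, 13.3% were at least 1.5-fold higher and 14.6% at least 1.5-fold lower. The summed log2 ratios were 0.44 (0.42 to 0.46) and 0.66 (0.64 to 0.67), and the medians were 0.47 and 0.69 against -0.043 over all genes. The 7 had log2 ratios of Ung 1.43, Mcm6 0.98, Mcm3 0.95, Cdc45 0.70, Ccne1 0.69, Mcm4 0.63 and Mcm7 0.60, and the 12 of Cdk1 1.18, Ccnb1 1.03, Ube2c 1.00, Ccnb2 0.87, Aurkb 0.80, Ccna2 0.76, Aurka 0.75, Bub1 0.73, Nusap1 0.72, Tpx2 0.65, Top2a 0.65 and Cdc20 0.64. The counting interval was 1.34 to 1.59 for Ung and 1.12 to 1.25 for Cdk1. Against Pou5f1-high primed cells the log2 ratio of the replication sum was 0.017 and that of the mitosis sum 0.42. Instead of 19 genes 7 of 43 were past 1.5-fold higher, a share near that of all genes, 16.2%, namely Cdc45, Ung, Cdk1, Ccnb1, Aurkb, Ube2c and Rb1. Past it lower, with 9% of all genes, were Pclaf and Ccnd2 at -1.79 and -1.66. Markers of other cell types were lower in d16 Dppa5a-high than in primed cells, with none at 0. They summed to 443 against 1544 CPM for fibroblasts, 242 against 696 for macrophages, 463 against 1139 for epithelium and 209 against 366 for smooth muscle, and their part in the whole-tag ratios was not tested.

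After 10 passages in 2iL the d16+10p cells were close to naive cells in every list. None of the 43 genes was past 1.5-fold in either direction, which is near the background. Of the 10093 genes that reached 10 CPM in one group or the other, 3.17% were at least 1.5-fold higher and 2.36% at least 1.5-fold lower. The summed log2 ratios were 0.066 (0.047 to 0.084) for replication and 0.041 (0.023 to 0.060) for mitosis, and the medians were 0.036 and 0.053 against -0.00080 over all genes. The members reached from -0.39 (Gins2) to 0.51 (Ung) among the replication genes and from -0.36 (Birc5) to 0.26 (Kif11) among the mitosis genes. The intervals cover counting error only and are too narrow, so these small differences were not read further. The comparisons of primed and of d16+10p with naive cells share the naive cells, and those of d8 and of d16 Dppa5a-high with primed cells share the primed cells.

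**Figure D2:**
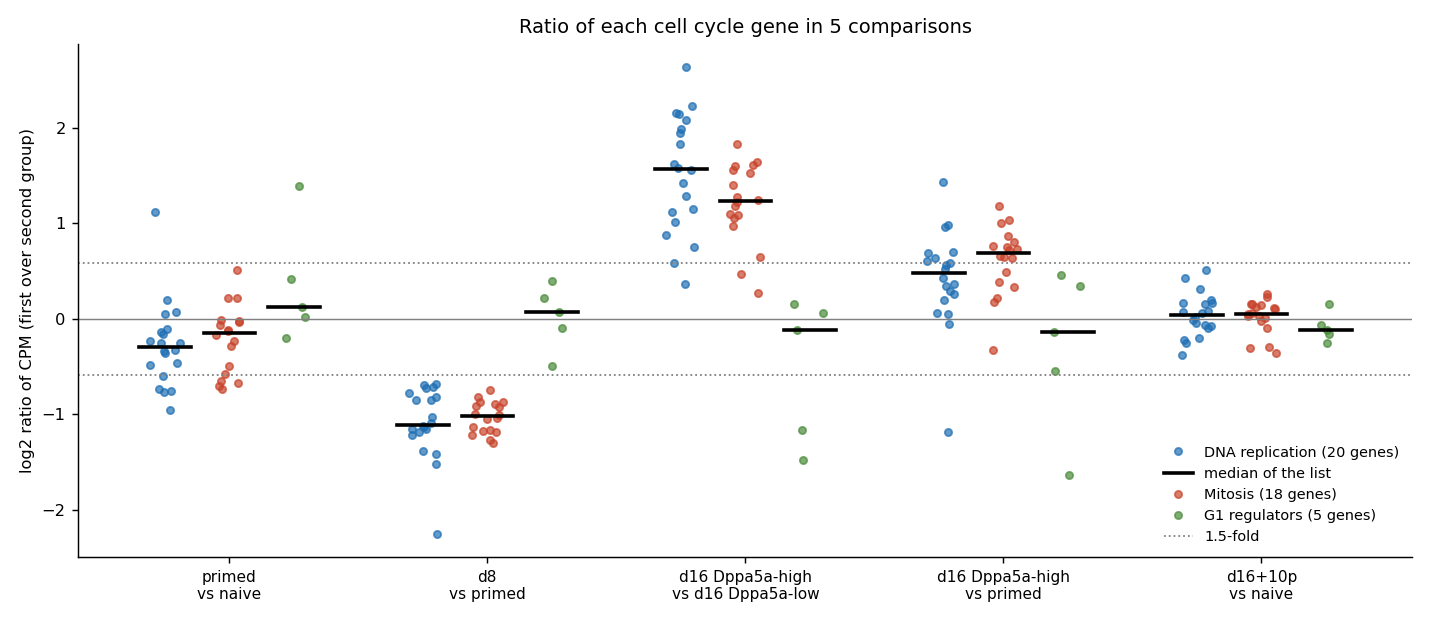
Points are the log2 ratios of single genes (y axis) in 5 comparisons of groups (x axis), colored by list, with black bars for list medians and dotted lines at 1.5-fold. All replication and mitosis genes lie below the lower dotted line for d8 against primed, nearly all lie above the upper one within d16, and all lie between the lines for d16+10p against naive.

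The class of a cell went with differences as wide as those between tags. Depth differed between classes too. In the primed tag its median was 19592.5 reads in Pou5f1-high, 10666 in other and 7349 in collagen-high cells, and the part of depth was not tested. Within the primed tag the replication list summed to 2531 CPM in Pou5f1-high, 1558 in other and 737 in collagen-high cells, and the mitosis list to 2191, 1675 and 1278. These Pou5f1-high cells were close in the replication list to the Dppa5a-high cells of naive and d16+10p, with 2496 CPM in Dppa5a-high naive, 2531 in Pou5f1-high primed and 2486 in Dppa5a-high d16+10p cells. In d8 the 743 Pou5f1-high cells, many of them near the Pou5f1 limit, held 1412 CPM of the replication and 1316 CPM of the mitosis list. Collagen-high cells of d16 held 1487 CPM of the mitosis list against 1149.7 in the other class of d16, and 820.3 against 874 CPM of the replication list. The collagen-high cells of d8 were lowest in both, at 551 and 629 CPM.

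Dppa5a-high cells of d16 and of the naive tag were closer in the replication than in the mitosis genes. The log2 ratio, d16 over naive, had a median of 0.040 over the replication and 0.38 over the mitosis genes, against 0.099 over all genes. Of the 43 genes 2 were past 1.5-fold higher, Rb1 at 1.01 and Bub1 at 0.62, and 1 was past it lower, Birc5 at -0.72. Over all genes 10.8% were past it higher and 5.04% lower, so neither share of members exceeded the background.

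**Figure D3:**
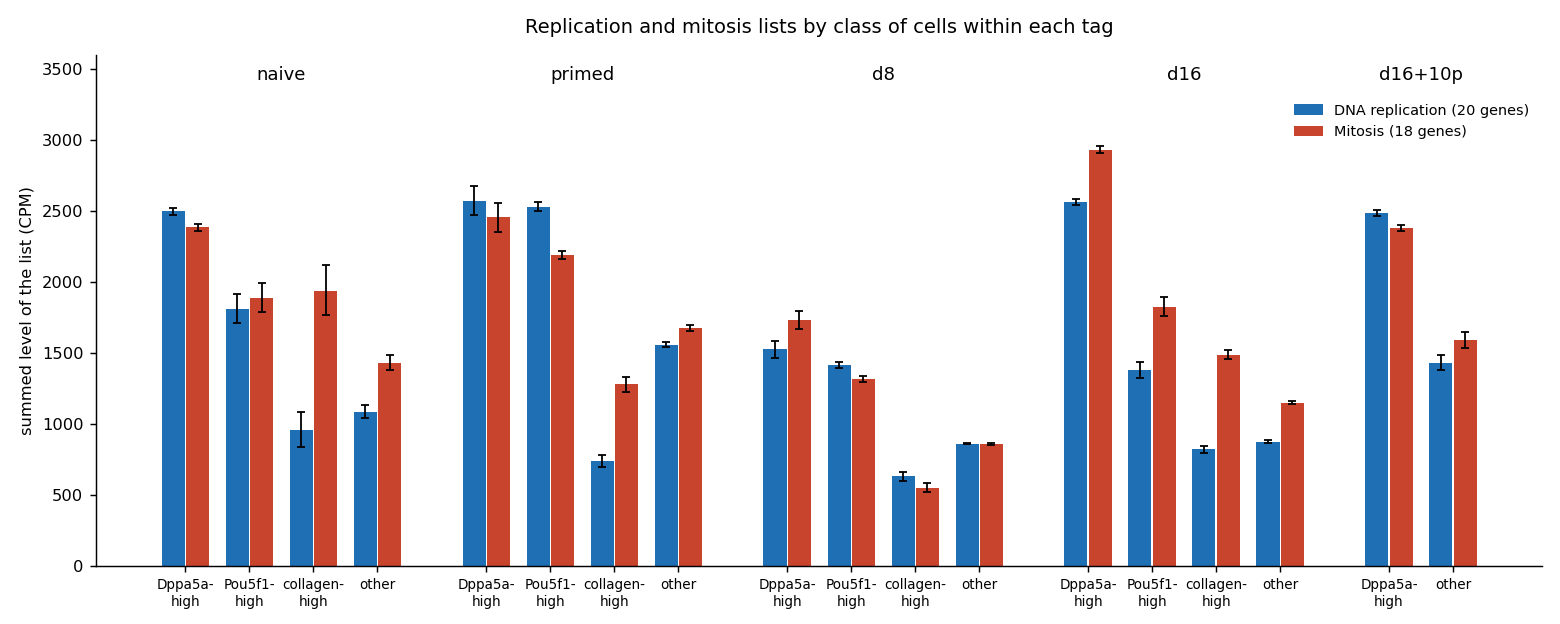
Bars give the summed level of the replication and mitosis lists in CPM (y axis, from 0) for each class of cells within each tag (x axis), with 95% counting intervals. The Dppa5a-high cells of naive, d16 and d16+10p and the Pou5f1-high cells of primed reach similar replication sums, between 2486 and 2562 CPM, and every class of d8 lies below them. The Pou5f1-high and collagen-high classes of d16+10p are not drawn.

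The 5 G1 genes did not share the pattern of the other lists. Ccnd2 was at 109 CPM in naive and 286 in primed cells, 301 in d8, 91.4 in d16 Dppa5a-high, 206 in d16 Dppa5a-low and 104 in d16+10p cells, higher in primed, d8 and d16 Dppa5a-low cells than in naive, d16 Dppa5a-high and d16+10p cells. Its log2 ratio was 1.39 (1.32 to 1.47) for primed against naive, -1.17 (-1.25 to -1.10) for d16 Dppa5a-high against Dppa5a-low and -1.63 (-1.72 to -1.57) for d16 Dppa5a-high against primed cells. Between d8 and primed cells it was 0.075 while all 38 replication and mitosis genes were lower. Ccnd1 was at 234 CPM in naive and 203 in primed cells, 236 in d8, 184 in d16 Dppa5a-high, 177 in d16 Dppa5a-low and 209 in d16+10p cells, a span of 1.34-fold, the narrowest of all 43 genes. Ccnd3 was at 102 CPM in naive and 103 in primed cells, 72.4 in d8, 141 in d16 Dppa5a-high, 127 in d16 Dppa5a-low and 113 in d16+10p cells. Its ratio for d8 against primed was -0.50, short of 1.5-fold over the whole tag and past it against Pou5f1-high primed cells. Cdkn1b, the gene of p27, was highest in d16 Dppa5a-low cells and was at 42.3 CPM in naive and 46.1 in primed cells, 43 in d8, 31.1 in d16 Dppa5a-high, 88.9 in d16 Dppa5a-low and 35.3 in d16+10p cells, with a log2 ratio of -1.48 (-1.64 to -1.39) for d16 Dppa5a-high against Dppa5a-low. Rb1 was at 16.9 CPM in naive and 22.9 in primed cells, 30.4 in d8, 29.4 in d16 Dppa5a-high, 31.9 in d16 Dppa5a-low and 15.5 in d16+10p cells, and none of its 5 ratios was past 1.5-fold between whole groups, while against Pou5f1-high primed cells those of d8 and d16 Dppa5a-high were 0.72 and 0.67. Past 1.5-fold in the G1 list were 1 of 5 higher for primed against naive (14.3% of all genes) and 0 for d8 against primed. Within d16 the count was 2 of 5 lower (27.4% of all genes), and for d16 Dppa5a-high against primed 1 of 5 lower (14.6%). For d16+10p against naive it was 0. With 5 genes these counts do not set the list apart from all genes.

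Of the 34 further regulators, 30 to 33 had 10 CPM in either group of a comparison. For primed against naive, 3 of 30 were past 1.5-fold higher (Cdk6 1.01, E2f7 0.71 and E2f6 0.63, as log2 ratios) and 2 lower (Mybl2 -2.51 and Cdt1 -1.09). Over all genes 14.3% were past it higher and 9.26% lower, so neither share of regulators exceeded the background. Mybl2, the gene of B-MYB, was at 161 CPM in naive and 27.4 in primed cells, 13.1 in d8, 133 in d16 Dppa5a-high, 14.7 in d16 Dppa5a-low and 185 in d16+10p cells, high in naive, d16 Dppa5a-high and d16+10p cells and low in the others. Its log2 ratio was -2.51 (-2.67 to -2.44) for primed against naive and 3.10 (3.04 to 3.32) within d16. In Pou5f1-high primed cells it stood at 32 CPM against 186 in Dppa5a-high naive cells, a log2 ratio of -2.50 where that of the mitosis sum was -0.12. Foxm1, in contrast, lay between 15.2 and 29.5 CPM in all groups. Cdt1, which loads the helicase, was at 90.9 CPM in naive and 42.2 in primed cells, 24.3 in d8, 62.7 in d16 Dppa5a-high, 19 in d16 Dppa5a-low and 66.8 in d16+10p cells. Cdk6, a partner of D-type cyclins, was at 31.8 CPM in naive and 65.2 in primed cells, 59.2 in d8, 31.8 in d16 Dppa5a-high, 31.9 in d16 Dppa5a-low and 30.8 in d16+10p cells, highest like Ccnd2 in primed and d8 cells.

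For d8 against primed, 11 of 31 further regulators were past 1.5-fold lower (Fbxo5 -1.45, Gmnn -1.10, Cdc25c -1.09, Cdc25b -1.03, Skp2 -1.02, Mybl2 -1.01, Foxm1 -0.78, Cdt1 -0.77, Cdc25a -0.72, E2f7 -0.66 and E2f8 -0.59) and 3 were past it higher, all of them CDK inhibitors. Over all genes 10.6% were past it lower and 9.52% higher, so the share of regulators past it higher was near the background. Cdkn2a, which encodes p16 and p19ARF, was at 37.1 CPM in naive and 27 in primed cells, 76.2 in d8, 28.6 in d16 Dppa5a-high, 24 in d16 Dppa5a-low and 37.1 in d16+10p cells. Cdkn2b, which encodes p15, was at 29.7 CPM in naive and 35.2 in primed cells, 93.2 in d8, 23.5 in d16 Dppa5a-high, 34.4 in d16 Dppa5a-low and 23.8 in d16+10p cells. Their log2 ratios for d8 against primed were 1.46 (1.39 to 1.61) and 1.38 (1.31 to 1.5), and Cdkn1c, the gene of p57, had 1.19 (1.10 to 1.49). In Pou5f1-high d8 cells Cdkn2a was at 28 and Cdkn2b at 44.8 CPM, against 79.7 and 97.3 in the other cells of d8. Cdkn1a, the gene of p21, was at 564 CPM in naive and 753 in primed cells, 1110.0 in d8, 749 in d16 Dppa5a-high, 881 in d16 Dppa5a-low and 545 in d16+10p cells, with a log2 ratio of 0.56 that was short of 1.5-fold over the whole tag and was 1.05 against Pou5f1-high primed cells. Reads of Cdkn2a were added over its transcripts, so its 2 products cannot be told apart.

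Within d16, 14 of 33 further regulators were past 1.5-fold higher in Dppa5a-high cells and 5 lower, against 21.6% and 27.4% of all genes. The higher ones were, as log2 ratios, Mybl2 3.10, Fbxo5 1.89, Gmnn 1.68, Cdt1 1.67, Cdc25a 1.63, E2f1 1.32, Tfdp1 1.05, Wee1 0.93, Tfdp2 0.92, Cdc25c 0.82, E2f8 0.73, Skp2 0.73, Cdk2 0.70 and E2f7 0.60. Fbxo5 encodes an inhibitor of the anaphase-promoting complex and Gmnn the inhibitor of Cdt1. The lower ones were Cdkn2c -1.23, Rbl2 -0.74, E2f6 -0.65, Cdkn1c -0.63 and Cdc25b -0.59. Against primed cells 6 of 30 were past it higher (Mybl2 2.24, E2f1 1.31, Cdkn2d 0.80, Fbxo5 0.79, Cdc25a 0.75 and Gmnn 0.71) and 2 lower (Cdk6 -1.01 and E2f6 -0.60), against 13.3% and 14.6% of all genes. For d16+10p against naive none of 30 was past it, while 3.17% of all genes were past it higher and 2.36% lower. The medians over this list were -0.15 for primed against naive, -0.33 for d8 against primed, 0.44 within d16, 0.21 for d16 Dppa5a-high against primed and 0.018 for d16+10p against naive.

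The share of cells with a read was compared after each cell was thinned to 5000 reads, which left out 68 naive, 271 primed, 755 d8, 40 d16 Dppa5a-high, 564 d16 Dppa5a-low and 69 d16+10p cells with fewer. The share of cells with a Top2a read was 64.8% in naive and 55.3% in primed cells, 34.2% in d8, 74.4% in d16 Dppa5a-high, 34.3% in d16 Dppa5a-low and 64% in d16+10p cells. The exact binomial interval was 33.2 to 35.2% in d8 and 61.2 to 68.3% in naive cells. Without thinning the shares were 80.5% in naive and 65.6% in primed cells, 58% in d8, 87.2% in d16 Dppa5a-high, 44.7% in d16 Dppa5a-low and 84.4% in d16+10p cells. As with the levels, d16 Dppa5a-high cells were the highest and d8 and d16 Dppa5a-low cells the lowest, with and without thinning. The share with an Mcm6 read was 40% in naive and 30.9% in primed cells, 17.1% in d8, 54.7% in d16 Dppa5a-high, 14.5% in d16 Dppa5a-low and 45.4% in d16+10p cells. Ccnd2 was read in more of the primed, d8 and d16 Dppa5a-low cells, with a share of 34.2% in naive and 60.3% in primed cells, 58.2% in d8, 31.3% in d16 Dppa5a-high, 49.7% in d16 Dppa5a-low and 36.6% in d16+10p cells. In the 759 collagen-high cells of all tags Top2a was read in 32.8% and Mcm6 in 15.8%, values near those of d8 and d16 Dppa5a-low cells. These sets overlap, since before thinning 580 of the 938 collagen-high cells were d16 Dppa5a-low and 126 were d8 cells.

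Single cells showed how the lower sums were made up. Of 5000 reads per cell, the median number of replication reads was 11 in naive and 7 in primed cells, 4 in d8, 12 in d16 Dppa5a-high, 3 in d16 Dppa5a-low and 11 in d16+10p cells. The median number of mitosis reads was 9 in naive and 6 in primed cells, 2 in d8, 13 in d16 Dppa5a-high, 2 in d16 Dppa5a-low and 9 in d16+10p cells. Both lists were lowest in d8 and d16 Dppa5a-low cells. The median of replication reads was 12 in Dppa5a-high naive, 12 in Pou5f1-high primed and 12 in Dppa5a-high d16+10p cells, the same as in d16 Dppa5a-high cells. The upper tails differed between the lists. The 90th percentile of replication reads was 19 in naive and 17.6 in primed cells, 10 in d8, 21 in d16 Dppa5a-high, 9 in d16 Dppa5a-low and 19 in d16+10p cells, whereas that of mitosis reads was 19 in naive and 20 in primed cells, 13 in d8, 27 in d16 Dppa5a-high, 18 in d16 Dppa5a-low and 21 in d16+10p cells. Most d16 Dppa5a-low cells thus held few mitosis reads, while their 90th percentile lay close to that of naive cells. Cells with at least 15 mitosis reads, the upper quartile of naive cells, made up 25.8% in naive and 20.4% in primed cells, 8.07% in d8, 42.6% in d16 Dppa5a-high, 12% in d16 Dppa5a-low and 25.9% in d16+10p cells. Cells below the naive median in both lists made up 23.3% in naive and 46.2% in primed cells, 78.8% in d8, 12.6% in d16 Dppa5a-high, 79.1% in d16 Dppa5a-low and 22.4% in d16+10p cells. About as many d8 as d16 Dppa5a-low cells were thus low in both lists. Among Dppa5a-high cells the share was 11.2% in naive and 16% in d16+10p, on either side of that in d16 Dppa5a-high cells. Cells without any mitosis read were 2.32% in naive and 6.24% in primed cells, 14.4% in d8, 0.485% in d16 Dppa5a-high, 16.1% in d16 Dppa5a-low and 1.94% in d16+10p cells. Among Pou5f1-high primed cells 21.6% were below both naive medians, and among Pou5f1-high d8 cells 63.9%.

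**Figure D4:**
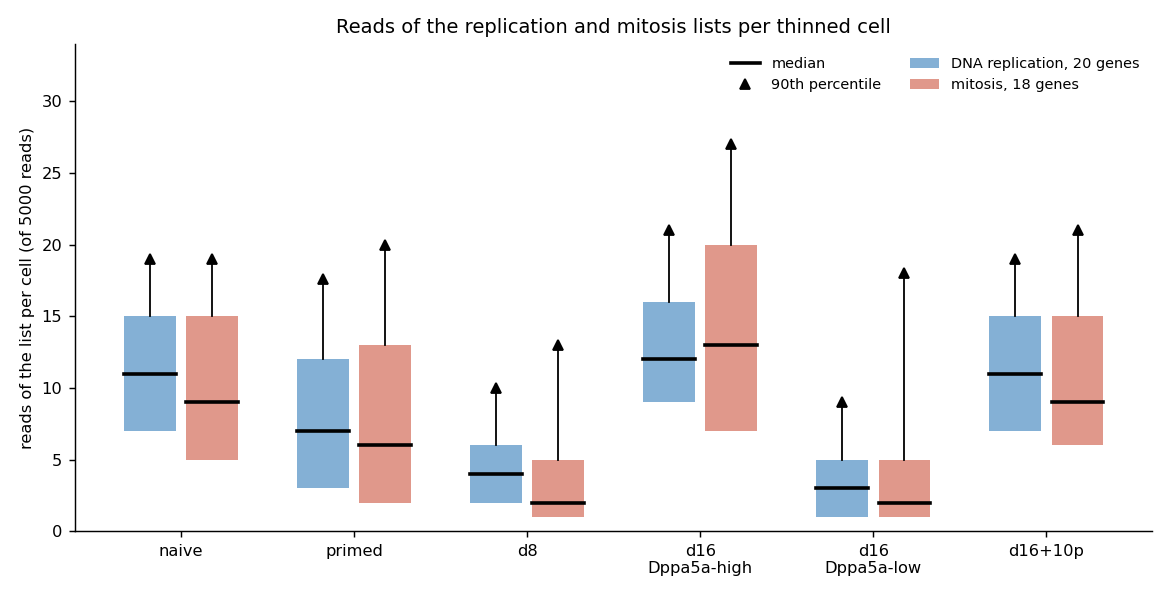
Boxes span the 25th to 75th percentile of reads per cell of the replication and mitosis lists after thinning to 5000 reads (y axis) in the 6 groups (x axis), black lines are medians and triangles the 90th percentile. Medians fall to 4 or fewer reads in d8 and d16 Dppa5a-low cells, where the triangle of the mitosis list stays at 13 and 18 reads.

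Phase was also read from genes found in the same cell. Cells with 2 or more reads of 4 mitosis anchors (Ccnb1, Cdc20, Plk1 and Aurka) were compared with cells that had none, within each group, leaving the anchors out. Such cells made up 54.3% in naive and 35.4% in primed cells, 19.5% in d8, 57.3% in d16 Dppa5a-high, 19% in d16 Dppa5a-low and 54.4% in d16+10p cells. The median log2 ratio of the other 14 mitosis genes was 1.15 in naive and 1.46 in primed cells, 2.07 in d8, 0.84 in d16 Dppa5a-high, 2.76 in d16 Dppa5a-low and 1.01 in d16+10p cells. The fewer the cells with anchor reads in a group, the larger was this ratio, in all 6 groups. The replication genes differed less, with medians over those that reached 10 CPM (18 of 20 in d16 Dppa5a-low cells, all in the other groups) of 0.48 in naive and 0.71 in primed cells, 0.94 in d8, -0.059 in d16 Dppa5a-high, 0.93 in d16 Dppa5a-low and 0.21 in d16+10p cells, and the 5 G1 genes had medians between -0.32 and 0.085. Medians over all genes in these comparisons lay between -0.063 and 0.099. In the Dppa5a-high cells of naive and d16+10p alone the replication genes had medians of -0.087 and -0.023, near 0 as in d16 Dppa5a-high cells, and the mitosis genes 0.59 and 0.70, while in d8 and d16 Dppa5a-low cells both lists were higher in the same cells. The highest ratios of the mitosis list in d16 Dppa5a-low cells were those of Ube2c, 3.01, Nusap1, 2.97, and Cenpe, 2.95.

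Cells with 2 or more reads of 4 replication anchors (Mcm5, Mcm6, Pcna and Gins2) made up 80.8% in naive and 63.4% in primed cells, 42.5% in d8, 84.5% in d16 Dppa5a-high, 35.5% in d16 Dppa5a-low and 83.4% in d16+10p cells. The median log2 ratio of the other 16 replication genes (over the 15 that reached 10 CPM in d16 Dppa5a-low cells) against cells with no anchor read was 1.48 in naive and 1.48 in primed cells, 0.89 in d8, 0.68 in d16 Dppa5a-high, 0.96 in d16 Dppa5a-low and 0.95 in d16+10p cells, and that of the 18 mitosis genes was 0.40 in naive and 0.83 in primed cells, 0.97 in d8, 0.20 in d16 Dppa5a-high, 1.29 in d16 Dppa5a-low and 0.67 in d16+10p cells. The median of the replication genes was above that of the mitosis genes in naive, primed, d16 Dppa5a-high and d16+10p cells, and below it in d8 and d16 Dppa5a-low cells. In Dppa5a-high naive cells alone the 2 medians were 0.79 and -0.26, and in Dppa5a-high d16+10p cells 0.66 and 0.33. In Pou5f1-high primed cells they were 1.00 and 0.53. Of the 66 naive cells without anchor reads 14 were Dppa5a-high, and of the 301 primed ones 25 were Pou5f1-high, so these whole-tag ratios also compare classes. Ccnd2 was lower in cells with mitosis anchors in naive cells, at -1.28, and in d16+10p cells, at -0.97, and lay between -0.39 and -0.19 in the other groups. In Dppa5a-high cells alone it was -0.43 in naive and -0.37 in d16+10p, near the other groups. Cells without replication anchor reads numbered 66 in naive, 67 in d16 Dppa5a-high and 65 in d16+10p cells, so these ratios rest on few cells.

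**Figure D5:**
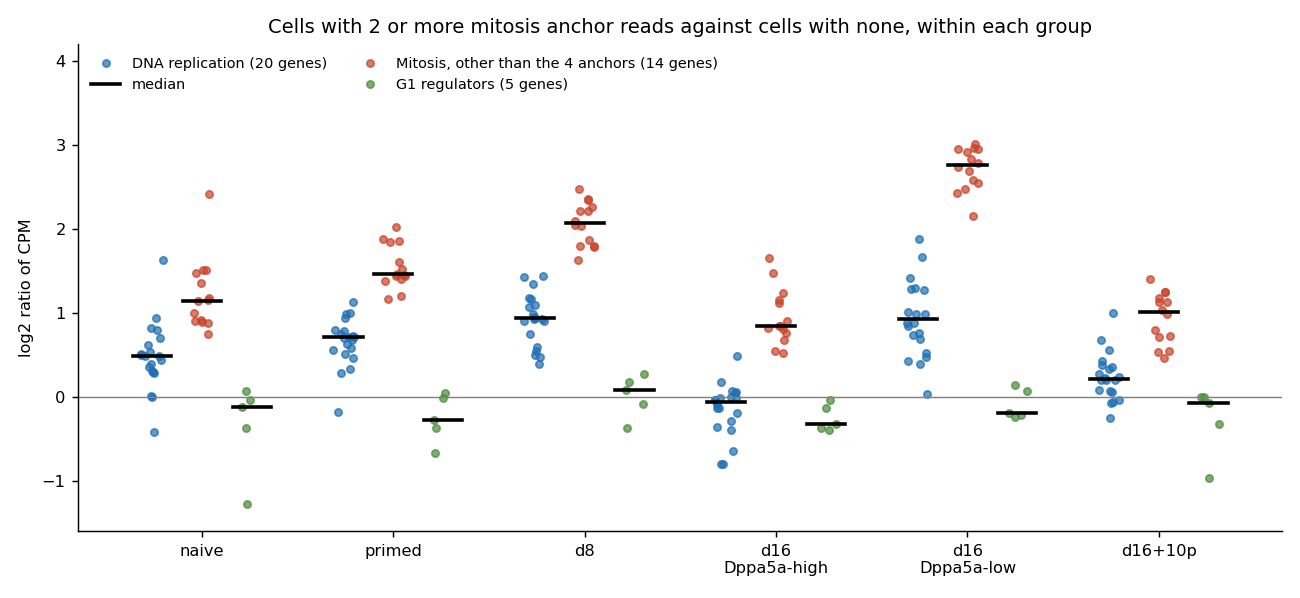
Points are log2 ratios of CPM of single genes (y axis) in cells with 2 or more reads of the 4 mitosis anchors against cells with none, within each of 6 groups (x axis), and black bars are medians over the genes with at least 10 CPM. Mitosis genes are set apart in every group and most in d16 Dppa5a-low cells (median 2.76), and replication genes lie around 0 in d16 Dppa5a-high cells. The naive and d16+10p groups are drawn as whole tags, and their Dppa5a-high cells alone, also near 0, are not drawn.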

How the data were processed

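The authors processed 1 pooled cDNA library and 1 tag library. Per the labels and the study's methods, reads were trimmed with cutadapt 2.10, aligned with Bowtie2 2.3.4.1 to mouse transcripts of GRCm38.p6, counted per gene symbol and cell barcode without a stated collapse of duplicate molecules, and cells were kept above the knee of reads per barcode, with doublets removed by their tags. Seurat 2.3.4 is named in the submitters' processing notes. The deposited values are whole-number counts of reads, not normalized. A deposited assignment of barcodes to tags gave the groups, and no barcode was in more than 1 group.

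From these counts, reads were summed over the cells of a group and divided by the group's total (CPM). Ratios used a pseudocount of 1 CPM for single genes and none for list sums. Genes were counted as past the fold at 1.5, over genes that reached 10 CPM in one of the groups compared. Cells were thinned to 5000 reads for shares and for reads found together. Each group is 1 tagged sample, so no test was run. The 43 members are described by role, and the other regulators by counts with those past 1.5-fold named. The members and lists were chosen with earlier results of these data known. Total reads ranged from 17245249 to 179944974 per group and from 3179 to 111822 per cell. Alternatives were TMM factors (edgeR 4.0.16, R 4.3.3), the mean CPM per cell, a filter on genes per cell, other pseudocounts, filters, splits and depths, and the class of the cells. Levels, intervals and figures came from Python 3.11.15 with numpy 2.4.6, scipy 1.17.1, pandas 2.3.3 and matplotlib 3.10.9, and the code was tested on simulated data. Promoters were from RefSeq.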

Additional observations from a re-analysis of the deposited data

How the results depend on the processing

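Of 152 list, count and share values and medians of genes found in the same cell under alternatives, 94 stayed within a set limit and 58 moved further. None that was past 1.5-fold changed direction. The limit was the counting error for list ratios and shares, and 1.5 times for counts. For the medians of genes found in the same cell it was a wider one, a shift of 1.5-fold. Below, the value for the replication list comes before that for the mitosis list, as log2 ratios of sums. With TMM scaling they were -0.32 and -0.32 for primed against naive, -0.96 and -0.95 for d8 against primed and 0.098 and 0.074 for d16+10p against naive. With the mean of CPM per cell they were -0.41 and -0.35 for primed against naive, -0.82 and -0.84 for d8 against primed, 1.69 and 1.37 within d16, 0.71 and 0.81 for d16 Dppa5a-high against primed, and 0.10 for replication in d16+10p against naive. With cells of 2000 to 8000 genes they were -0.25 for mitosis in primed against naive, -1.10 and -1.09 for d8 against primed, 1.2 for mitosis within d16, 0.42 and 0.62 for d16 Dppa5a-high against primed and 0.020 for mitosis in d16+10p against naive. Medians of the members were -0.29 and -0.15 for primed against naive, -1.11 and -1.02 for d8 against primed, 1.57 for replication within d16, 0.47 and 0.69 for d16 Dppa5a-high against primed and 0.036 for replication in d16+10p against naive. With a split of d16 at 2000 CPM of Dppa5a the ratios were 1.44 and 1.15, and without collagen-high cells 1.5 and 1.3.

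With Dppa5a-high cells of naive and d16+10p and Pou5f1-high cells of primed they were 0.020 and -0.12 for primed against naive, -1.49 and -1.29 for d8 against primed, 0.017 and 0.42 for d16 Dppa5a-high against primed and -0.0058 and -0.0032 for d16+10p against naive. The members past 1.5-fold then went from 9 to 1 lower for primed against naive, from 0 to 1 higher for d8 against primed and from 19 to 7 higher for d16 Dppa5a-high against primed. Top2a was read in 47.6% in naive and 37.6% in primed cells, 25% in d8, 61.7% in d16 Dppa5a-high, 23.9% in d16 Dppa5a-low and 50.7% in d16+10p cells after thinning to 3000 reads, and in 80.5% in naive and 65.6% in primed cells, 58% in d8, 87.2% in d16 Dppa5a-high, 44.7% in d16 Dppa5a-low and 84.4% in d16+10p cells without thinning. With 1 anchor read or more the median of the other mitosis genes in d16 Dppa5a-low cells was 2.17. The cause of these shifts was not tested. Of 2079 values of single genes 1452 moved by less than the counting error, 627 moved further, and none past 1.5-fold changed direction.

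The chief limit is that each culture is 1 tagged sample, so the spread between cultures is unknown and no statement here rests on a test. No paired analysis was possible because each group holds 1 sample and the result comes from no test. The primed, d8 and d16 cultures can hold feeder cells and the tags hold several classes of cells, so a whole-tag level mixes them. The naive tag also held 3.25% collagen-high and 20.5% other cells, although the study kept naive cells on gelatin. Whether such cells came from another culture and carried the wrong tag was not tested. Depth limits the genes with the fewest reads, such as Ccne2, and the cells with few reads, 564 of which were left out of the d16 Dppa5a-low shares.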

Other observations

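Ccnd2 differed between classes of cells within a tag. In the naive tag it was at 73.7 CPM in Dppa5a-high and 306 in other cells, and in the d16+10p tag at 81.8 and 299 CPM. The d8 cells had 301 CPM. In the naive tag the median depth was 23536 reads in Dppa5a-high and 9246 in other cells. Whether the other cells came from the culture of their tag was not tested. The 62 primed-tagged cells that were Dppa5a-high had 116 CPM of Ccnd2 against 291 in Pou5f1-high cells of that tag. Whether these 62 cells came from the primed culture was not tested. Pclaf had 87.7 CPM in those 62 cells and 203 in the Pou5f1-high cells.

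Among collagen-high cells of d16 Cdkn2c, the gene of the CDK inhibitor p18, was at 27.7 CPM, against 9.45 in other cells of d16.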
